A study of Mus musculus with 4 samples.

Results

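Krüppel-like factors are DNA-binding proteins whose zinc fingers read GC-rich and CACC sequences in promoters. Of the family, Klf2, Klf4, Klf6, Klf10 and Klf13 are described here in Lin- Sca-1+ Kit+ (LSK) bone marrow cells of mice, the sorted fraction rich in haematopoietic stem and early progenitor cells. These 5 genes of the 32285 in the count matrices were chosen by symbol because earlier results of the same data showed them moving between genotypes. Their levels are therefore a description and carry no test.

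The libraries came from 4 genotypes, each a single droplet library from the pooled marrow of 5 mice aged 8 to 12 weeks. Ikk2-CA mice carried Vav1-iCre/+ and 1 floxed Ikk2-CA allele, an always-on version of the NF-kB activating kinase, held at Rosa26 behind a stop cassette. Jak2 V617F mice carried Vav1-iCre/+ and 1 floxed allele of Jak2 V617F, the activated kinase of myeloproliferative neoplasms. Double mutant mice carried Vav1-iCre/+ and both alleles, and control mice carried Vav1-iCre/+ with neither. Vav1-iCre, which all 4 groups share, drives recombination in blood cells. The study's design also names an NF-kB EGFP reporter in the crosses, which the genotype labels do not list. Kit+ cells were enriched on beads before the sort. With 1 library per genotype the spread between animals is unknown, so every interval below covers counting error only and no p-value is given.

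As background, KLF2 holds lymphocytes in a resting, circulating state partly through the sphingosine phosphate receptor gene S1pr1, and it is induced through the ERK5 and MEF2 pathway. KLF4 promotes monocyte differentiation and restrains proliferation in several lineages. KLF6 is an early-response factor of many cell types, KLF10 was found as an early gene induced by TGF-beta, and KLF13 acts in lymphoid and erythroid cells. KLF10 and KLF13 recruit the Sin3 corepressor.

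The window from 250 bases before to 50 bases after the start site, in RefSeq GRCm38.p6, was found for 4 of the 5 genes. These windows are shown because the 3 genes that moved most can be set beside Klf13, which moved least. Capitals mark a MEF2 site or the letters TGACG (the core of a cAMP response element, written CGTCA on the other strand), and the Klf6 window holds neither. Both strands were searched, and the marked matches do not overlap.
Klf2 promoter, chr8:72318812-72319111, plus strand: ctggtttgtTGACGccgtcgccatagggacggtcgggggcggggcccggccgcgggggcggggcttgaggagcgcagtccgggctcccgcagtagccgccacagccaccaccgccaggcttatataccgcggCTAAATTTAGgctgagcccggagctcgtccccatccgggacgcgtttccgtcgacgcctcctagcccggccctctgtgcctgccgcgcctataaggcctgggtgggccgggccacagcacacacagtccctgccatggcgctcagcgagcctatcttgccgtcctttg
Klf4 promoter, chr4:55532426-55532725, minus strand: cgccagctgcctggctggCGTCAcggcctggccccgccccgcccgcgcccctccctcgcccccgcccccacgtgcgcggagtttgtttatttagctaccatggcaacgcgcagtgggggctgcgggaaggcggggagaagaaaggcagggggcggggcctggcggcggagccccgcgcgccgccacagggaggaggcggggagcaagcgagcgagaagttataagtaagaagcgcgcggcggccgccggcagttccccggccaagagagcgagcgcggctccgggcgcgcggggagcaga
Klf6 promoter, chr13:5861239-5861538, plus strand: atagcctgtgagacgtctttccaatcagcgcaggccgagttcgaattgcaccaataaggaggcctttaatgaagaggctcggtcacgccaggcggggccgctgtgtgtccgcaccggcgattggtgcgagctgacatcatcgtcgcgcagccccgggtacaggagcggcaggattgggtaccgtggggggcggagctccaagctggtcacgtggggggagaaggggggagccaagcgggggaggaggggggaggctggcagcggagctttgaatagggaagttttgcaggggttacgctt
Klf13 promoter, chr7:63938866-63939165, minus strand: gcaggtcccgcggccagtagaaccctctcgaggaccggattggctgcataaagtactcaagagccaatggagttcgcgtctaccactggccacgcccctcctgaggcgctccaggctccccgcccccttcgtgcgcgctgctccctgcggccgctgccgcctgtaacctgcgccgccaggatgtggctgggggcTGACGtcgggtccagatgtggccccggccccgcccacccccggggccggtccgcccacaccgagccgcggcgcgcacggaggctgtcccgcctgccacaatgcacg

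The Klf2 window holds the MEF2 site CTAAATTTAG at position -118 from the start site, and a MEF2 site occurs in 3.19% of 32851 promoter windows of the same length. TGACG occurs in the windows of Klf2, Klf4 and Klf13 and not in that of Klf6, against 20.8% of all windows. No CArG box (1.63% of windows), the site bound by serum response factor, and no kappaB site (4.51%), the motif bound by NF-kB, was found in any of the 4 windows. These letters describe the windows and say nothing of which factor is bound there. In GENCODE vM21 (GRCm38), Klf2 lies at chr8:72319033-72321656 on the plus strand and Klf4 at chr4:55527143-55532466 on the minus strand. Klf6 lies at chr13:5861482-5870394 (plus), Klf10 at chr15:38291463-38300706 (minus) and Klf13 at chr7:63886351-63938915 (minus). Klf13 overlaps Gm27252 and E030018B13Rik on the opposite strand, and its counts would hold their reads if strand was not used in counting.

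After the study's stated cell filters, 37344 of 41674 barcodes were kept, between 5268 and 14156 per library, with 102362297 to 197836491 unique molecular identifiers (UMIs, 1 per captured RNA molecule) per library. Median UMIs per cell were 17726 in Ikk2-CA, 11106.5 in Jak2 V617F, 24915 in double mutant and 10606 in control cells, so shares of cells are given after thinning each cell to 5000 UMIs. At most 64 barcodes (0.620% of a library) were shared by any 2 libraries. Kit and Ly6a, the genes of the sort markers Kit and Sca-1, were seen in 34.2% to 57.0% and 38.1% to 54.9% of thinned cells, and the T cell gene Cd3e in at most 0.0317%. Xist, a transcript of female cells, had no UMI in 75.9% of Ikk2-CA, 99.7% of Jak2 V617F, 71.1% of double mutant and 43.5% of control cells, so the pools may differ in sex and the part of sex in the results cannot be told apart from genotype. Summed levels of 7 macrophage markers were 6.27, 7.89, 10.4 and 25.0 CPM (UMIs of a gene per 1000000 UMIs) in Ikk2-CA, Jak2 V617F, double mutant and control libraries, and those of 7 endothelial markers were 9.15, 21.9, 14.9 and 19.4 CPM. Neither list had a member at 0 in any library. The 8 T or NK cell markers summed to 166, 221, 217 and 224 CPM, with 1 at 0 in the double mutant. Of these 8, only 1 reached 10 CPM in any library. The 6 stromal markers summed to 10.7, 14.4, 12.4 and 15.7 CPM, with 1 at 0 in every library except Jak2 V617F. B cell and monocyte genes were highest in Ikk2-CA, with Cd79a at 187, 7.13, 11.6 and 32.9 CPM in the same order. Csf1r was at 17.7, 4.56, 6.50 and 5.91 CPM. Marker-gated cell types, described below, were also weighted by their control share. The log2 ratio of Ikk2-CA to control was then 2.63 for Klf2, 2.76 for Klf4 and 1.34 for Klf6. Without the weighting it was 2.20, 2.61 and 1.06. The part of B cells and monocytes in the library levels of the Klf genes was not tested on its own.

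Klf2, Klf4 and Klf6 were higher in each single mutant than in control, most in Ikk2-CA, and in the double mutant they were between 0.697 and 0.834 times the control level. Klf2 had 47.1 CPM (95% Poisson interval 46.2 to 48.1) in Ikk2-CA, 24.4 CPM (23.7 to 25.1) in Jak2 V617F, 8.56 CPM (8.09 to 9.06) in double mutant and 10.3 CPM (9.66 to 10.9) in control cells. The 4 counting intervals were separate, with the double mutant and control far under both single mutants. Klf4 had 16.7 CPM (16.1 to 17.2) in Ikk2-CA, 4.34 CPM (4.04 to 4.65) in Jak2 V617F, 1.90 CPM (1.68 to 2.14) in double mutant and 2.73 CPM (2.42 to 3.06) in control cells. These rest on 3296, 793, 270 and 279 UMIs. Klf6 had 70.2 CPM (69.0 to 71.3) in Ikk2-CA, 53.4 CPM (52.4 to 54.5) in Jak2 V617F, 25.3 CPM (24.4 to 26.1) in double mutant and 33.7 CPM (32.5 to 34.8) in control cells, the same order as Klf2 and Klf4.

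Klf10 and Klf13 moved less than Klf2, Klf4 and Klf6 in each single mutant over control. Klf10 had 26.2 CPM in Ikk2-CA, 28.4 CPM in Jak2 V617F, 17.8 CPM in double mutant and 21.4 CPM in control cells, so here Jak2 V617F and not Ikk2-CA was highest. Klf13 had 51.9 CPM in Ikk2-CA, 54.4 CPM in Jak2 V617F, 41.4 CPM in double mutant and 51.7 CPM in control cells. The Klf13 intervals of Ikk2-CA (50.9 to 52.9 CPM) and control (50.3 to 53.1 CPM) overlapped. The double mutant lay under both on the CPM scale, which did not hold against control with the other scaling given below.

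**Figure D1:**
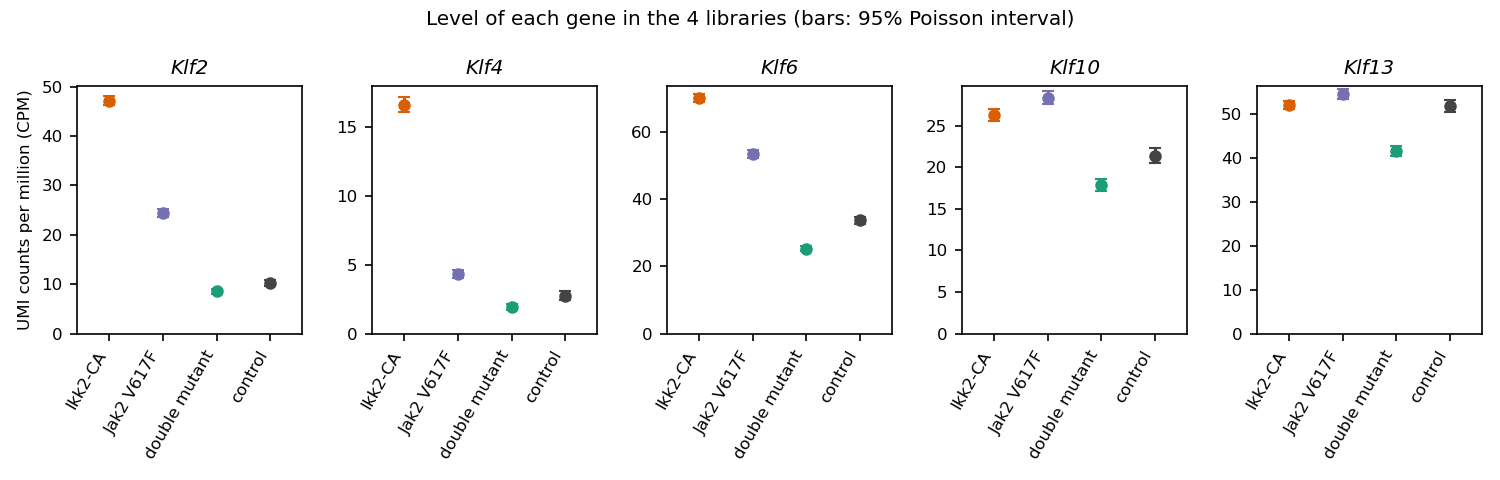
Level of each gene (y axis, CPM, linear from 0, a scale of its own in each panel) in the Ikk2-CA, Jak2 V617F, double mutant and control libraries (x axis), as points with 95% Poisson intervals. Klf2, Klf4 and Klf6 are highest in Ikk2-CA and next in Jak2 V617F, with double mutant and control close together. Klf10 lies between 17.8 and 28.4 CPM and Klf13 between 41.4 and 54.4 CPM.

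Against control, Ikk2-CA was 4.59 times higher for Klf2 (95% counting interval 4.31 to 4.90), 6.11 times for Klf4 (5.41 to 6.93) and 2.08 times for Klf6 (2.01 to 2.16). Ratios of Ikk2-CA to control for Klf10 and Klf13 were 1.23 (1.17 to 1.29) and 1.00 (0.971 to 1.04). Thus 3 of the 5 members were at least 2-fold higher in Ikk2-CA, against 2.14% of the 8377 genes that reached 10 CPM in at least 1 of the 2 libraries. Their median log2 ratio was 1.06 against -0.23 over all those genes. Nothing is read from such counts, since the members were chosen from the same contrast.

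Jak2 V617F over control gave 2.38 for Klf2 (2.22 to 2.54), 1.59 for Klf4 (1.39 to 1.83), 1.59 for Klf6 (1.53 to 1.65), 1.33 for Klf10 and 1.05 for Klf13. Klf2 was the 1 member of 5 past 2-fold, against 0.297% of 8405 genes. Here 4 of the 5 members passed the 10 CPM minimum and Klf4 did not, with a median log2 ratio over all 5 of 0.67 against -0.0044 for all genes.

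The double mutant over control gave 0.834 for Klf2 (0.767 to 0.907), 0.697 for Klf4 (0.587 to 0.826), 0.751 for Klf6, 0.835 for Klf10 and 0.802 for Klf13. None of the 5 was at least 2-fold higher or at most 0.5 times as high, against 0.832% and 2.44% of 8294 genes. The members' median log2 ratio of -0.32 lay close to the -0.24 of all genes. With scaling factors that centre the typical gene, the ratios of Klf2 and Klf10 turned to the other side of 1 (log2 0.05 for each with TMM factors). Klf13, the member at the median, came to -0.0040 with TMM factors. No direction against control is therefore given for Klf2, Klf10 and Klf13. TMM factors moved the median log2 ratio of all genes to 0.03 in Ikk2-CA and 0.10 in double mutant, and the members' median to 1.30 and -0.0040. In cells with no Xist UMI, where the pools are more alike in that gene, double mutant over control was lower, at a log2 ratio of -0.91 for Klf2, -0.88 for Klf4, -0.65 for Klf6, -0.43 for Klf10 and -0.30 for Klf13.

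The double mutant was also set against each single mutant. The double mutant over Ikk2-CA was 0.182 for Klf2 (0.171 to 0.193), 0.114 for Klf4 (0.100 to 0.129), 0.360 for Klf6 (0.347 to 0.373), 0.679 for Klf10 and 0.798 for Klf13. Of the 5, 3 were at most 0.5 times as high, against 2.06% of 7752 genes. The double mutant over Jak2 V617F was 0.351 for Klf2 (0.329 to 0.374), 0.438 for Klf4 (0.380 to 0.503), 0.473 for Klf6 (0.455 to 0.491), 0.628 for Klf10 and 0.762 for Klf13, again 3 of 5 against 1.13% of 8247 genes, although Klf4, 1 of those 3, is under the 10 CPM minimum that the 8247 genes passed. These comparisons share libraries, so their ratios stand side by side and are not counted as repeats of each other.

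If the log2 ratios of the single mutants simply added, the double mutant would have had 112 CPM of Klf2, where 8.56 CPM was measured. The corresponding sums were 26.5 CPM for Klf4, measured at 1.90 CPM, and 111 CPM for Klf6, measured at 25.3 CPM. The departure from additivity was -3.71 on the log2 scale for Klf2 (-3.84 to -3.58), -3.80 for Klf4 (-4.07 to -3.54), -2.14 for Klf6 (-2.22 to -2.06), -0.97 for Klf10 and -0.40 for Klf13, against a median of 0.02 over 8536 genes. In cells with no Xist UMI it was -4.11 for Klf2, -4.29 for Klf4 and -2.43 for Klf6.

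Klf2 differed both in the share of positive cells and in UMIs per positive cell. After thinning, Klf2 was detected in 16.8% of Ikk2-CA, 10.6% of Jak2 V617F, 4.31% of double mutant and 5.03% of control cells, and before thinning in 37.5%, 19.8%, 14.7% and 8.94%. The unthinned shares put double mutant above control, the reverse of the CPM, so no order is read from them. Positive cells held a mean of 1.75 Klf2 UMIs in Ikk2-CA, 1.36 in Jak2 V617F, 1.35 in double mutant and 1.21 in control cells after thinning. In Ikk2-CA the 1% of cells with most Klf2 held 24.5% of its thinned UMIs, with a maximum of 33 UMIs in 1 cell.

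Thinned shares for Klf4 were 6.98% in Ikk2-CA, 2.18% in Jak2 V617F, 1.03% in double mutant and 1.09% in control cells (unthinned 17.8%, 4.28%, 3.83% and 2.43%). Those for Klf6 were 24.5%, 21.7%, 12.4% and 16.1% in the same order of genotypes (unthinned 49.7%, 36.7%, 36.2% and 27.6%). Klf10 was seen in 13.5%, 14.2%, 9.70% and 11.6% of thinned cells, and Klf13 in 23.1%, 24.1%, 18.9% and 21.3%. No cell type that surely lacks these genes was available. Among gates with at least 50 cells, the thinned Klf2 share was lowest in erythroid cells of 3 libraries, with 5.41% of 259 Ikk2-CA, 1.56% of 192 Jak2 V617F and 1.34% of 149 control cells, at median depths of 21273, 23552 and 20366 UMIs. In the double mutant it was lowest in the megakaryocyte gate, at 1.41% of 427 cells. Free RNA in the droplets could give UMIs at that level, which was not tested. Klf4 had no UMI in 149 thinned erythroid control cells, which allows a share of up to 2.45% (exact binomial) of cells with a UMI at that depth, and 1 UMI at full depth.

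Cells were gated by at least 2 distinct markers of 1 type after thinning, with more of that type than of any other and no Klf gene among the markers. Many thinned cells also held at least 2 markers of another type. Cells with 2 or more such types were 62.6% of Ikk2-CA, 53.1% of Jak2 V617F, 40.1% of double mutant and 64.9% of control cells. A gate thus names the type with most markers and is not a pure cell type. Gated shares differed between libraries, with 9.13% of Ikk2-CA, 34.1% of Jak2 V617F, 19.7% of double mutant and 29.6% of control cells in the stem cell gate. The B cell gate held 14.8%, 0.516%, 1.03% and 1.97% in that order. Levels were therefore compared inside each gate, where at least 50 cells were present in every library for 5 types.

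In the stem cell gate Ikk2-CA stood well above the other genotypes for Klf2, Klf4 and Klf6. Klf2 had 127.5 CPM (121 to 134) in 864 Ikk2-CA cells, 30.4 CPM (28.8 to 31.9) in 4367 Jak2 V617F cells, 17.0 CPM (15.2 to 18.9) in 1007 double mutant cells and 9.60 CPM (8.38 to 11.0) in 2139 control cells. Klf4 had 26.0 CPM (23.1 to 29.1), 5.60 CPM (4.96 to 6.30), 4.35 CPM (3.47 to 5.38) and 2.14 CPM (1.58 to 2.83) in Ikk2-CA, Jak2 V617F, double mutant and control cells. Inside this gate the double mutant lay above control for both genes. Klf6 had 161 CPM (154 to 169) in Ikk2-CA, 79.0 CPM (76.6 to 81.6) in Jak2 V617F, 49.8 CPM (46.8 to 53.1) in double mutant and 52.3 CPM (49.4 to 55.4) in control stem-gated cells, with the double mutant and control intervals overlapping.

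Within that gate, Ikk2-CA over control was 13.3 for Klf2 (11.5 to 15.4), 12.1 for Klf4 (8.94 to 16.8), 3.08 for Klf6 (2.86 to 3.32) and 1.64 for Klf10. Thus 3 of 5 members were past 2-fold, against 1.53% of 8672 genes. Jak2 V617F over control was 3.16 for Klf2 (2.74 to 3.66) and 2.62 for Klf4 (1.93 to 3.63), 2 of 5 past 2-fold against 0.438% of 8668 genes. Double mutant over control was 1.77 for Klf2 (1.49 to 2.11) and 2.03 for Klf4 (1.41 to 2.95), 1 of 5 against 0.802% of 8600 genes. Klf4 is under the 10 CPM minimum of that background in Jak2 V617F, double mutant and control cells, so its calls in these 2 comparisons lie outside the genes that give the shares. When markers were counted at full depth with at least 3 required, the log2 ratio of double mutant to control was 0.29 for Klf4 and 0.57 for Klf2, against 1.02 and 0.82 with the gate used here. Fos, an immediate early gene, moved with them in the stem gate, at 855 CPM in Ikk2-CA, 242 CPM in Jak2 V617F, 93.1 CPM in double mutant and 76.8 CPM in control cells, and its part in these ratios was not tested.

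Klf2 was higher in Ikk2-CA than in control in each of the 5 gates, by the most in the stem cell gate. Elsewhere it was 2.95 times in the B cell gate and 3.36 times in the lymphoid-primed gate. It was 7.47 times in the granulocyte-monocyte gate and 10.5 times in the megakaryocyte gate. The last ratio rests on 9 UMIs in control. Control cells put Klf2 highest in the B cell gate (19.9 CPM) and the lymphoid-primed gate (17.9 CPM), whose intervals overlapped. Ikk2-CA cells put it highest in the stem cell gate, apart from the plasmacytoid dendritic (66.6 CPM), lymphoid-primed (59.9 CPM) and B cell (58.8 CPM) gates. Those 3 gates overlapped their neighbours in that order. Jak2 V617F cells put Klf2 highest in the monocyte-primed gate, at 65.3 CPM in 86 cells, apart from the stem cell gate at 30.4 CPM. The monocyte-primed gate was also first in double mutant cells, at 32.6 CPM in 55 cells, and overlapped the B cell gate (19.6 CPM). Klf2 was lowest in the erythroid gate of Ikk2-CA (9.64 CPM) and Jak2 V617F (4.40 CPM).

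Klf4 was highest in the monocyte-primed gate, with 60.3 CPM (55.7 to 65.1) in Ikk2-CA, 37.9 CPM (27.8 to 50.4) in Jak2 V617F and 11.3 CPM (6.79 to 17.6) in double mutant cells. Control had 34 such cells, too few for a level. That gate held 419 Ikk2-CA, 86 Jak2 V617F and 55 double mutant cells. Klf4 in the double mutant over Ikk2-CA was 0.187 there, 0.168 in both the stem cell and the lymphoid-primed gates, 0.121 in the granulocyte-monocyte gate, 0.0842 in the megakaryocyte gate (7 UMIs in double mutant) and 0.0737 in the B cell gate (2 UMIs). In the B cell gate the double mutant Klf4 level rests on 2 UMIs, against 17 in control.

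Klf6 and Klf10 were highest in the stem cell gate in all 4 libraries, although Klf6 overlapped the monocyte-primed gate and Klf10 the B cell gate in Jak2 V617F. Klf10 there had 49.9, 38.2, 30.5 and 30.5 CPM in Ikk2-CA, Jak2 V617F, double mutant and control cells. Klf13 varied least over gates, between 38.0 and 68.5 CPM in Ikk2-CA and between 30.9 and 67.7 CPM in control, with the B cell gate lowest in each library.

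**Figure D2:**
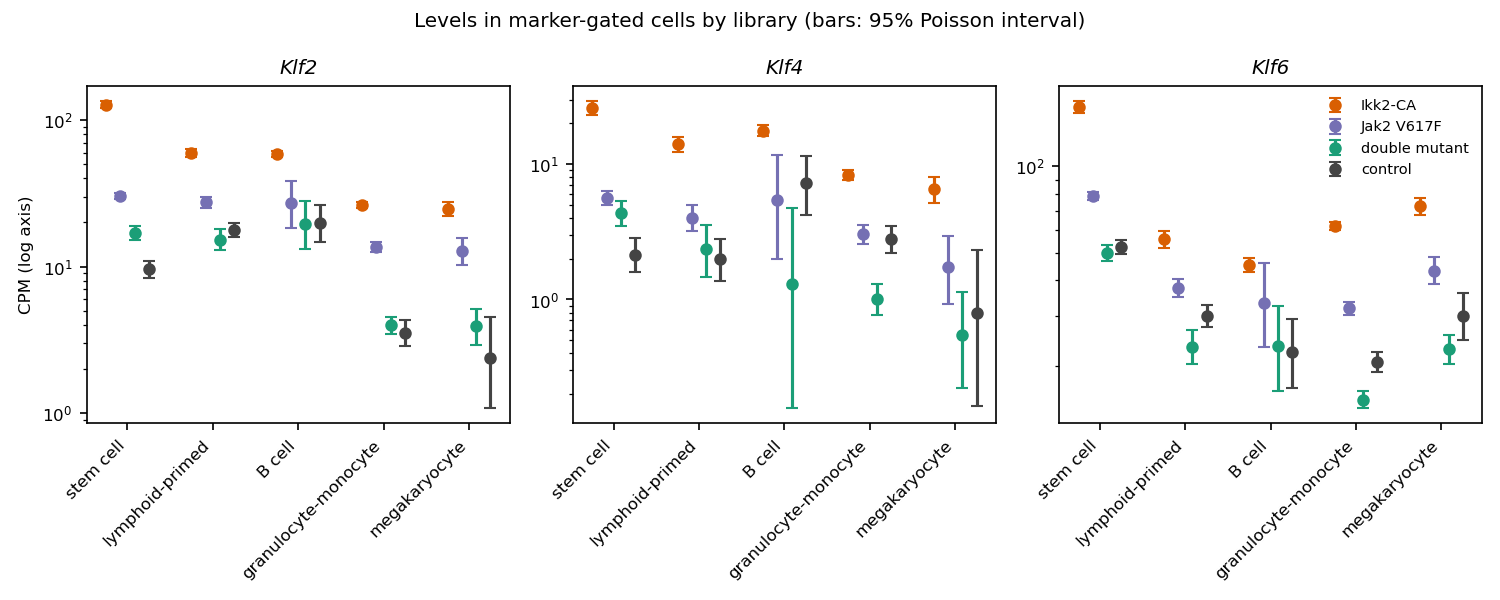
Levels of Klf2, Klf4 and Klf6 (y axis, CPM, log axis) in the 5 gates with at least 50 cells in every library (x axis), with Ikk2-CA, Jak2 V617F, double mutant and control points from left to right and 95% Poisson intervals. The gap between Ikk2-CA and control Klf2 is widest in the stem cell gate, at 127.5 against 9.60 CPM.

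Cycling cells, taken as those with a UMI of Mki67 (a proliferation gene) after thinning, were 38.3% of Ikk2-CA, 32.5% of Jak2 V617F, 31.6% of double mutant and 25.2% of control cells. Klf2 had 39.1 CPM in Mki67-positive against 53.2 CPM in Mki67-negative Ikk2-CA cells, 17.2 against 26.5 CPM in Jak2 V617F, 6.12 against 10.0 CPM in double mutant and 8.82 against 10.8 CPM in control cells. Positive cells were lower in all 4 libraries, with ratios of 0.736 (0.705 to 0.767), 0.648 (0.606 to 0.692), 0.612 (0.538 to 0.694) and 0.815 (0.711 to 0.932). With Mki67 counted at full depth the Klf2 ratios were lower still, at 0.572, 0.461, 0.459 and 0.731. Positive cells were also deeper, with a median of 22718 UMIs against 15829 in Ikk2-CA and 18532 against 10256 in control, and the part of depth was not tested. Ikk2-CA over control for Klf2 was 4.44 (3.95 to 4.99) in positive and 4.91 (4.54 to 5.32) in negative cells. Double mutant over control for Klf2 was 0.694 (0.594 to 0.811) in positive and 0.924 (0.835 to 1.02) in negative cells. Jak2 V617F over control for Klf4 was 1.05 (0.832 to 1.32) in positive and 2.03 (1.70 to 2.44) in negative cells, a difference that was not tested.

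Klf10 was lower in Mki67-positive cells of all 4 libraries (ratios 0.779, 0.733, 0.669 and 0.770 in Ikk2-CA, Jak2 V617F, double mutant and control), and Klf13 ratios lay between 0.897 and 0.935. Klf6 gave 0.803 in Ikk2-CA, 0.694 in Jak2 V617F and 0.868 in double mutant cells, and 0.973 (0.906 to 1.04) in control cells. The control interval for Klf6 held 1 here but not with Mki67 counted at full depth (0.765, 0.714 to 0.819) or with at least 2 of 10 cycling genes (0.756, 0.706 to 0.810). Klf4 gave 1.02 (0.952 to 1.09) in Ikk2-CA, 0.626 (0.536 to 0.729) in Jak2 V617F, 0.581 (0.439 to 0.763) in double mutant and 1.22 (0.947 to 1.56) in control cells. For Klf4 in Ikk2-CA the log2 ratio of 0.03 turned to -0.21 with Mki67 counted at full depth and -0.17 with at least 2 of 10 cycling genes, so no direction is given for it. With at least 2 cycling genes Klf4 in control cells was 1.31 (1.02 to 1.68). For scale, the median gene had a log2 ratio between 0.0084 and 0.05, and of 2 genes tied to resting cells, Txnip had ratios of 0.720, 0.590, 0.623 and 0.580 and Cdkn1b 1.04, 1.00, 0.986 and 1.06.

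Inside the stem cell gate Klf2 in Mki67-positive over negative cells was 0.332 (0.277 to 0.396) in Ikk2-CA, at 50.4 against 152 CPM. The ratio was 0.518 (0.458 to 0.585) in Jak2 V617F, 0.519 (0.380 to 0.696) in double mutant and 1.10 (0.790 to 1.5) in control cells. Klf6 there gave 0.521 (0.455 to 0.595) in Ikk2-CA, 0.623 (0.579 to 0.670) in Jak2 V617F, 0.932 (0.804 to 1.08) in double mutant and 1.02 (0.890 to 1.17) in control cells. Thus Klf2 was higher in Mki67-negative stem-gated cells of every mutant, and Klf6 in those of the 2 single mutants. The double mutant interval for Klf6 held 1, and control cells had intervals that held 1 for both genes.

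**Figure D3:**
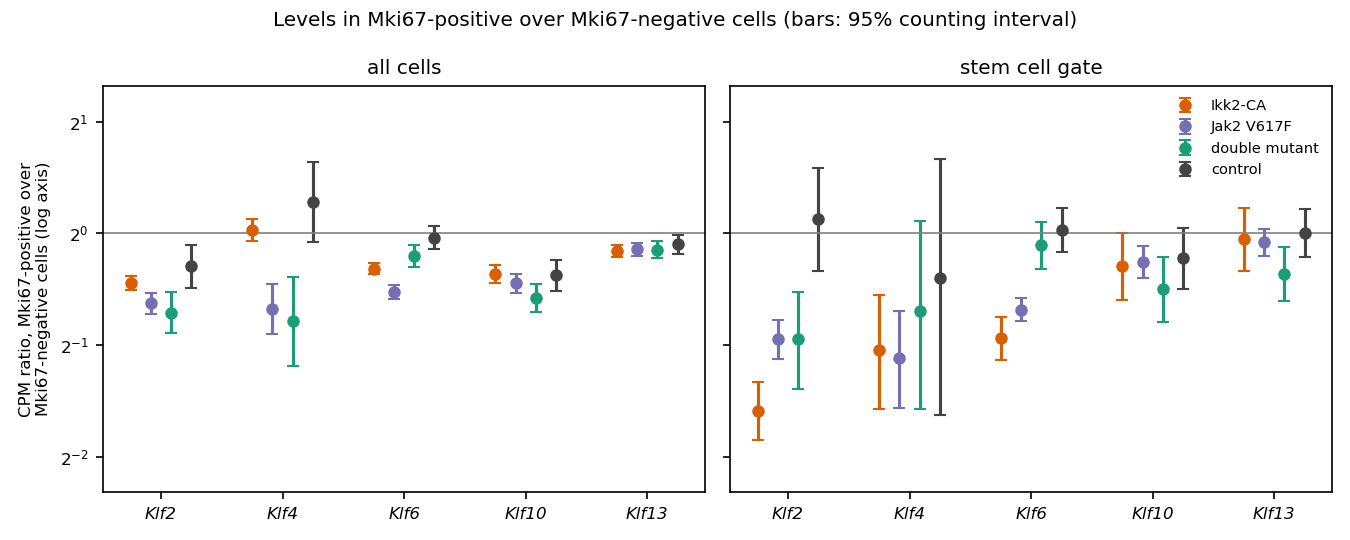
Ratio of CPM in Mki67-positive over Mki67-negative cells (y axis, log axis) for the 5 genes (x axis) in all cells (left) and in the stem cell gate (right), by library from Ikk2-CA to control, with 95% counting intervals and a line at 1. Klf2 in stem-gated Ikk2-CA cells is lowest, at 0.332.

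Immediate early genes, which cells switch on within minutes of a stimulus, moved in the same libraries as the Klf genes. Of 18 in the list, 14 reached 10 CPM in any library, with a median log2 ratio to control of 1.70 in Ikk2-CA, 0.70 in Jak2 V617F and -0.17 in double mutant, and 11, 5 and 0 of them at least 2-fold higher, against 2.14%, 0.297% and 0.832% of all genes at 10 CPM. The largest ratios were those of Nr4a1 (25.9, 11.6, 1.58 and 2.28 CPM in Ikk2-CA, Jak2 V617F, double mutant and control), Nr4a2 (22.7, 8.08, 2.39 and 2.79 CPM), Fos (411, 176, 56.4 and 55.7 CPM) and Fosb (112, 90.7, 26.8 and 23.6 CPM). Thinned cells held a median of 11 UMIs of the list in Ikk2-CA, 6 in Jak2 V617F, 4 in double mutant and 4 in control cells, and 25.4%, 9.21%, 1.19% and 0.887% of cells had 20 or more. With 1 library per genotype, the handling of each pool, bead enrichment and sort included, cannot be told apart from genotype. The libraries also differed in the share of barcodes kept, at 95.5%, 90.6%, 91.2% and 81.0% in the same order.

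Cells were then compared within bins of their immediate early UMIs, a comparison chosen after seeing the data. The top bin has no upper limit, and loads inside a bin were not compared between libraries and may differ. Among cells with 0 to 4 immediate early UMIs, Klf2 had 21.2 CPM in Ikk2-CA, 11.0 CPM in Jak2 V617F, 5.39 CPM in double mutant and 8.28 CPM in control cells. With 10 to 19 such UMIs it had 56.7, 47.5, 30.5 and 23.9 CPM in the same order of genotypes. Klf2 thus rose with load in every library, and Ikk2-CA stayed 2.56 times (2.06 to 3.19) over control at 0 to 4 and 2.37 times (1.96 to 2.89) at 10 to 19. In cells with 20 or more, Klf2 had 114 CPM in Ikk2-CA, 79.4 CPM in Jak2 V617F, 118 CPM in double mutant (36 UMIs in 61 cells) and 37.5 CPM in control (12 UMIs in 64 cells). There the double mutant was 1.03 times Ikk2-CA (0.720 to 1.44) and 3.15 times control (1.60 to 6.64) for Klf2, and 1.89 times Ikk2-CA (1.07 to 3.12) for Klf4, at 52.5 against 27.7 CPM.

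Klf4 behaved differently in Ikk2-CA, with 14.8 CPM at 0 to 4, 18.3 CPM at 5 to 9, 14.6 CPM at 10 to 19 and 27.7 CPM at 20 or more. Control cells had 1.75, 2.28, 5.35 and 6.25 CPM over the same bins, the last from 2 UMIs in 64 cells. Ikk2-CA was 8.45 times control (5.72 to 12.8) at 0 to 4 immediate early UMIs. Klf6 at that load had 23.6 CPM (20.6 to 26.9) in Ikk2-CA, 25.1 CPM (23.3 to 27.1) in Jak2 V617F, 18.4 CPM (16.3 to 20.6) in double mutant and 27.3 CPM (25.0 to 29.8) in control cells, so Ikk2-CA did not exceed control there. At 20 or more, Klf6 had 187, 185, 180.3 and 84.4 CPM in that order, the last from 27 UMIs.

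Each bin of thinned cells was also weighted by its share of control cells. The log2 ratio of Ikk2-CA to control was then 1.38 for Klf2, against 2.20 for the whole library, and 2.69 for Klf4, against 2.61. For Klf6 it was -0.060, against 1.06, and for Klf10 it was -0.27, against 0.30. The weighted double mutant over Ikk2-CA was -1.27 for Klf2 against -2.46 for the whole libraries, -2.70 for Klf4 against -3.13, -0.13 for Klf6 against -1.47 and 0.05 for Klf10 against -0.56. The whole-library ratios used full counts of all kept cells. They thus differ from the weighted ones in depth and cells too, and the part of the weighting alone was not tested. The load of immediate early genes and the genotype come from the same single libraries and cannot be told apart.

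**Figure D4:**
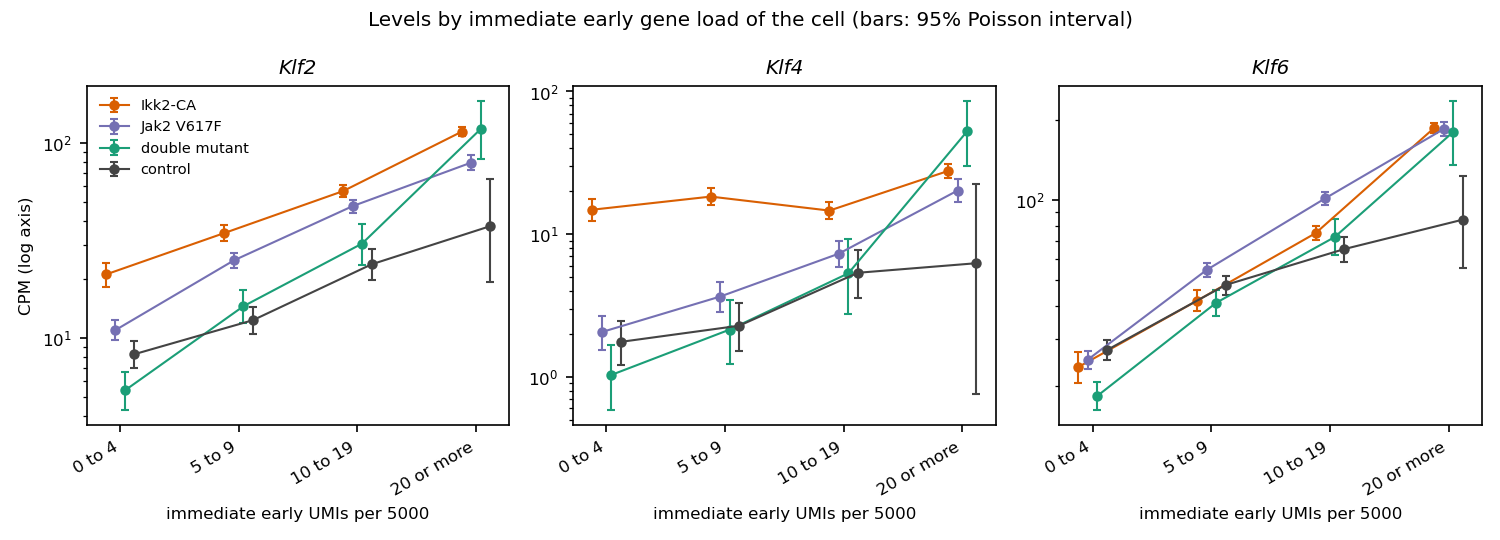
Levels of Klf2, Klf4 and Klf6 (y axis, CPM, log axis) in cells binned by their summed UMIs of 18 immediate early genes after thinning to 5000 UMIs (x axis), one line per library with 95% Poisson intervals. Klf6 lines of Ikk2-CA and control meet in the low bins, while Klf4 in Ikk2-CA stays between 14.6 and 18.3 CPM from 0 to 19 UMIs.

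The same cells tended to hold several of these transcripts. Klf2 and Klf4 were detected together in 194 thinned Ikk2-CA cells, 63 Jak2 V617F, 11 double mutant and 15 control cells, 1.74, 2.12, 4.81 and 3.77 times the number that independent detection would give. Klf2 with Klf6 gave 1.51, 1.68, 2.04 and 1.63 times, and Klf2 with Klf13 gave 1.01, 1.09, 1.13 and 1.03 times. Cells with a Klf2 UMI had more Fos, by 1.77 times in Ikk2-CA, 2.20 times in Jak2 V617F, 2.5 times in double mutant and 1.90 times in control. Nfkbia, the NF-kB inhibitor gene that NF-kB itself induces, was 1.08, 1.20, 1.01 and 1.34 times higher in them, beside 1.09, 1.05, 1.05 and 1.31 times for Actb.

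Over 20 profiles (5 gates in 4 libraries) and 5663 genes with a mean of at least 20 CPM, the genes most like Klf2 by Pearson r of log2(CPM + 1) were Smad7 (0.88), Btg1 (0.85), Zfp36 (0.84), Btg2 (0.83) and Fos (0.83). Those most like Klf4 were Klf2 (0.88), Btg1 (0.86), Lyrm2 (0.84), Tra2b (0.84) and Zfp36 (0.84). Ppp1r15a (0.92), Klf10 (0.91), Rlim (0.91), Dusp1 (0.91) and Fos (0.89) were most like Klf6. Klf13 gave 0.0575 with Klf2 and 0.36 with Klf6. The profiles share libraries and depth, so these values are descriptions.

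The rest of the KLF and SP family did not share the pattern. Of 26 genes, 14 reached 10 CPM in any library, the 5 members among them, and the other 9 had a median log2 ratio to control of -0.52 in Ikk2-CA, -0.058 in Jak2 V617F and -0.80 in double mutant. With the members the medians were -0.28, -0.03 and -0.59. Klf9, a factor tied to glucocorticoid and thyroid hormone response, had 12.0 CPM in Ikk2-CA, 39.0 CPM in Jak2 V617F, 16.0 CPM in double mutant and 26.0 CPM in control cells. Klf3, a CtBP-binding repressor, had 16.8, 27.8, 14.0 and 36.3 CPM, and the erythroid activator Klf1 had 9.31, 7.34, 2.97 and 11.5 CPM in the same order. Klf3 and Klf9 were at most 0.5 times control in Ikk2-CA, against 3.37% of all genes at 10 CPM. Klf1 and Klf3 were in double mutant cells, against 2.44% of all such genes. Klf7 (11.5, 13.5, 7.34 and 14.1 CPM), Sp1 (25.8, 42.1, 24.9 and 43.4 CPM), Sp2 (10.9, 11.0, 7.97 and 11.3 CPM), Sp3 (42.5, 57.9, 38.6 and 60.7 CPM), Sp4 (7.99, 11.8, 6.67 and 12.0 CPM) and Klf16 (9.04, 8.95, 8.87 and 10.9 CPM) stayed between 0.5 and 2 times control in all 3 mutants.

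**Figure D5:**
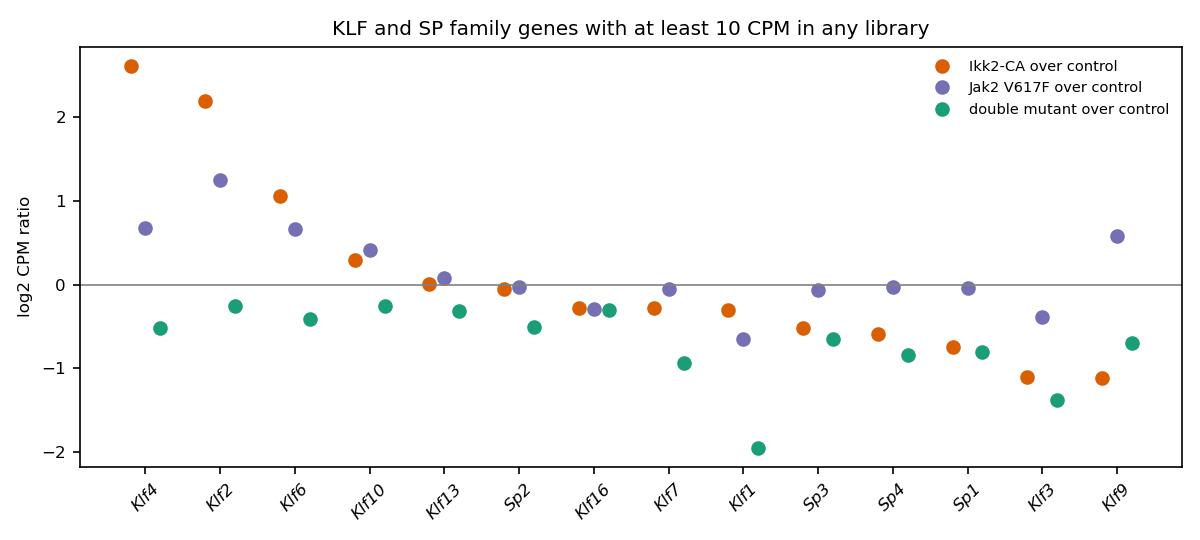
Log2 CPM ratio to control (y axis) of the 14 KLF and SP family genes with at least 10 CPM in any library (x axis, ordered by Ikk2-CA over control), for Ikk2-CA, Jak2 V617F and double mutant. Klf4, Klf2 and Klf6 lead in Ikk2-CA, Klf9 and Klf3 are lowest there, and in double mutant no gene is above 0 on the CPM scale, where all genes have a median of -0.24.

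Genes upstream of Klf2 moved by less than Klf2 in both single mutants, and by more than its log2 ratio of -0.26 in double mutant over control. The median of all genes was -0.24 in that last comparison, where no direction is given for Klf2, so nothing is read from it. Of 10 ERK5, MEF2 and FOXO genes, 9 reached 10 CPM in any library and none was at least 2-fold higher in any mutant. That count is close to the 2.14%, 0.297% and 0.832% of all genes that were. Foxo3 was at most 0.5 times control in Ikk2-CA, against 3.37% of all genes there, 0.452% in Jak2 V617F and 2.44% in double mutant. Lists below with no gene past 2-fold are also near these shares. Foxo1, a factor that activates Klf2 in T cells, had 13.6 CPM in Ikk2-CA, 7.19 CPM in Jak2 V617F, 4.87 CPM in double mutant and 8.46 CPM in control cells. Foxo3 had 24.2, 37.4, 26.2 and 51.4 CPM, Mef2a 31.3, 36.0, 22.2 and 37.2 CPM and Map3k3 7.93, 11.6, 6.99 and 10.6 CPM. The 4 measured ubiquitin ligases of KLF proteins (Vhl, Wwp1, Btrc and Fbxw7), of 6 listed, moved by less than 2-fold in every mutant, with a median log2 ratio to control of -0.35 in Ikk2-CA, -0.03 in Jak2 V617F and -0.51 in double mutant. The 9 corepressor and partner genes had medians of -0.37, 0.0055 and -0.28 in those mutants, with none past 2-fold either way, and the largest changes were in the acetyltransferase genes Kat2b (8.07, 14.6, 7.97 and 14.6 CPM), Crebbp (52.3, 79.4, 47.7 and 79.1 CPM) and Ep300 (36.6, 55.6, 33.7 and 55.3 CPM).

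Genes placed downstream of KLF factors moved in both directions. For scale, 2.14% of all genes at 10 CPM were at least 2-fold higher in Ikk2-CA, 0.297% in Jak2 V617F and 0.832% in double mutant. At most 0.5 times control were 3.37%, 0.452% and 2.44% in that order. A list with no gene past 2-fold is thus near those shares, and nothing is read from it. Of 8 trafficking genes linked to KLF2, 5 reached 10 CPM, none was at least 2-fold higher in any mutant, and Cxcr4, the marrow retention receptor, had 29.5 CPM in Ikk2-CA, 46.1 CPM in Jak2 V617F, 39.6 CPM in double mutant and 60.2 CPM in control cells, at most 0.5 times control in Ikk2-CA. Il6ra (16.4, 15.9, 10.0 and 17.1 CPM), S1pr4 (23.1, 31.0, 24.3 and 34.4 CPM) and Itgb7 (27.0, 19.7, 16.5 and 23.2 CPM) followed in size of change. Of 9 quiescence genes, the cell cycle inhibitor gene Cdkn1a had 42.6, 18.8, 14.0 and 12.5 CPM and was the 1 gene past 2-fold in Ikk2-CA. Txnip (89.5, 267, 133 and 244 CPM) and Tob1 (7.13, 10.2, 7.20 and 15.1 CPM) were at most 0.5 times control there, and Ccng2 had 17.7, 23.6, 16.0 and 31.2 CPM. Among 9 measured TGF-beta response genes of 14, Id3 (36.4, 1.58, 1.66 and 4.88 CPM) and Skil (19.6, 13.7, 7.51 and 9.43 CPM) were past 2-fold in Ikk2-CA, while Id2 had 17.2, 16.0, 6.92 and 15.1 CPM and Tgfbr2 12.7, 23.9, 13.2 and 22.5 CPM. None of 10 cycling genes was past 2-fold in any mutant, with the largest changes in Birc5 (209, 151, 168 and 149 CPM), Ube2c (250.7, 169.6, 190.1 and 197 CPM), Aurkb (70.9, 58.6, 64.0 and 56.1 CPM) and Cenpf (109, 109, 80.6 and 98.5 CPM).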

How the data were processed

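The deposited files are 10x matrices of UMI counts per gene and cell, made with Cell Ranger (4.0.0 per the file headers) and read as raw counts; Seurat 4.0.0 is named in the submitters' processing notes. Cells with under 500 or over 7500 genes or with 10% or more mitochondrial UMIs were left out, as the study states. Counts were summed per library or gate and scaled to CPM (per 1000000 UMIs), with exact Poisson, binomial (Clopper-Pearson) and conditional binomial 95% intervals. With 1 library per genotype no test was made. The background is all genes that reached 10 CPM in at least 1 of the libraries compared. Shares and gates used cells thinned to 5000 UMIs, and gates needed at least 2 markers. No doublet caller was run. Alternatives left out the 5% of cells with the most UMIs, or cells with at least 2 markers each of 2 or more types. The latter kept 3941 Ikk2-CA, 7362 Jak2 V617F, 3215 double mutant and 3369 control cells.

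The members, gene lists and markers were chosen with earlier results of these data known. Named genes were the members, family genes with at least 10 CPM in any library, up to 4 genes per other list with the largest ratio to control, and the 5 genes most like Klf2, Klf4 and Klf6. Fos in the stem cell gate and in Klf2-positive cells, and Nfkbia, Actb, Txnip, Cdkn1b, Cd79a and Csf1r as points of comparison, were added after their values were seen. The summing and ratio steps were tested on simulated data. Alternatives included TMM factors (edgeR 4.0.16) and median-of-ratios factors (DESeq2 1.42.0) in R 4.3.3, with Python 3.11.15, numpy 2.4.6, scipy 1.17.1 and pandas 2.3.3 for the rest.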

Additional observations from a re-analysis of the deposited data

Results flagged for a closer look

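For all 5 genes, each mutation went with a higher level when it was alone and with a lower level when it was added to the other mutation, and this opposite direction is why they are listed. On the log2 scale, adding Ikk2-CA to Jak2 V617F gave -1.51 for Klf2, where Ikk2-CA alone gave 2.20 over control. The difference between those, the departure from additivity, was -3.71 for Klf2, -3.80 for Klf4, -2.14 for Klf6, -0.97 for Klf10 and -0.40 for Klf13. For Klf13 Ikk2-CA alone gave 0.0058, which is no difference within counting error. The departures were not tested, since 4 libraries leave no spread between animals.

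Klf4 in double mutant over control went in opposite directions in 2 gates, with a log2 ratio of 1.02 in the stem cell gate and -2.46 in the B cell gate. The B cell value rests on 2 UMIs in double mutant and 17 in control cells, and the difference was not tested.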

How the results depend on the processing

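Values are in the order Ikk2-CA, Jak2 V617F and double mutant over control, then double mutant over Ikk2-CA and over Jak2 V617F. The members' median log2 ratio was 1.06, 0.67, -0.32, -1.47 and -1.08. It was 1.16, 0.88, -0.086, -1.38 and -0.93 as a mean over cells, and 1.34, 0.59, -0.11, -1.59 and -0.83 with gated types at their control shares. TMM factors gave 1.30, -0.0040, -1.40 and -0.77 for all but the second, and median-of-ratios factors gave 1.33, -0.0014 and -0.77 for Ikk2-CA over control, double mutant over control and double mutant over Jak2 V617F. Under 5% mitochondrial UMIs it was 1.15 for the first, 0.53 for the second and -0.90 for the last. In cells with no Xist UMI it was 1.13, -0.65, -1.78 and -1.30 for all but the second, and without cells holding markers of 2 or more types 1.46, 0.96, -1.68 and -1.18 for all but the third. Thinning gave -0.21 for the third and -1.02 for the last. Genes at least 2-fold higher numbered 179, 25, 69, 27 and 59, and those at most 0.5 times as high 282, 38, 202, 160 and 93. At 50 CPM these were 77, 9, 24, 5 and 22 higher and 52, 10, 26, 59 and 15 lower, and with no minimum 1604, 1008, 1384, 2126 and 1658 higher and 3522, 2368, 3529, 2695 and 2803 lower. TMM factors gave 111 lower in the first, 144 higher and 76 lower in the third, and 104 higher and 25 lower in the last; median-of-ratios factors gave 102 lower, 145 higher and 74 lower, and 104 higher and 25 lower. Cells with no Xist UMI gave 304 lower in the third and 175 lower in the last, and cells without markers of 2 or more types 146 lower in the first. Control shares of gated types gave 114, 24 and 121 lower in the first 3, 14 higher in the fourth and 45 lower in the last. Weighted by immediate early load in thinned cells, an alternative chosen after seeing the data, Klf6 in Ikk2-CA over control was -0.060. Of 275 ratios of members under an alternative, 137 moved outside their counting interval, as did 13 of 50 departures and 28 of 40 Mki67 ratios. The intervals thus do not cover the choice of processing. Of the 275, 12 changed sign. Among them Klf2 in double mutant over control was 0.05 with TMM factors, 0.04 as a mean over cells and 0.08 at control shares, and it moved the other way, to -0.91, in cells with no Xist UMI. The causes of these shifts were not tested. Within cells with no Xist UMI, Ikk2-CA over control was 2.11 for Klf2, 2.71 for Klf4 and 1.13 for Klf6. Klf4 in small gates is limited by its depth. No paired analysis was possible because each genotype has 1 library.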
